A study of Mus musculus with 24 samples.

Results

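The genes of ferritin and of haem and iron handling were followed through 24 RNA sequencing libraries of sorted mouse microglia, the macrophages that reside in the brain. The 9 genes were Fth1, Ftl1, Hmox1, Blvrb, Slc40a1, Tfrc, Slc11a1, Slc11a2 and Ncoa4, out of the 35519 genes in the deposited files. The genes were chosen by name, with earlier results of these same libraries known, and the contrast of phagocytosis with control was among those results. The levels of the 9 genes in that contrast are therefore described and carry no p-value, and nothing is read from their calls. Tested were genotype, sex and their interactions with the state for the 9 genes, and phagocytosis against control for the transcript share of Slc11a2 and for other genes of the same pathways, which were also listed with those results known.

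Each library came from 1000 Ly6C-CD11b+Fcrls+ cells of whole C57BL/6 mouse brain and was made by Smart-Seq2, which copies full-length transcripts without marking molecules or strand. Animals were female or male and either wild type (WT) or NL4-/-, lacking the synaptic adhesion protein neuroligin-4. Each sex and genotype was sampled in a control state, with 2 libraries, and in a phagocytosis state, with 4 libraries, so that 8 control libraries stood against 16 phagocytosis libraries. The series' text calls the samples biological replicates and counts 5 per phagocytosis group, of which 4 were analysed here. Age, the material taken up and whether uptake took place in the animal or in a dish are not stated in the labels. The knocked-out gene itself was not analysed here, so genotype rests on the labels.

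Total expected reads per library ran from 421107 to 1013797. All 6 microglial markers reported (P2ry12, Tmem119, Fcrls, Cx3cr1, Sall1 and Csf1r) had reads in all 24 libraries and together took 11648 to 30489 CPM (reads scaled to a library total of 1e6). In 3 control libraries (number 1 of female NL4-/-, number 2 of male WT and number 1 of male NL4-/-) transcripts made of the mouse major satellite repeat took over 20% of the reads. In the text below CPM of single genes are scaled by TMM, a correction for library composition, and marker sums by the library total alone.

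Iron inside a cell is held in ferritin, a protein shell built of heavy chains (Fth1), which oxidise the incoming iron, and light chains (Ftl1), which help the mineral core to form. Macrophages that digest other cells gain iron in haem, which haem oxygenase 1 (Hmox1) opens to release iron, carbon monoxide and biliverdin. Ferroportin (Slc40a1) exports iron, the transferrin receptor (Tfrc) brings it in, and the amount of several of these proteins is set by iron regulatory proteins that bind a hairpin in the messenger RNA, the iron-responsive element.

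The hairpin is printed below because 5 of the 9 genes carry it, on different ends of the message. A hairpin in the 5′ untranslated region lets the iron regulatory proteins block translation when iron is scarce, and one in the 3′ untranslated region protects the message from decay. A search of the GENCODE vM21 transcripts (genome build GRCm38) for a C bulge, 5 paired bases and a CAGTGN loop found the sites below. Capitals mark the bulged C and the loop, and all are written 5′ to 3′ on the strand of the gene.
Fth1, 5′ untranslated region, chr19:9982733-9982760, plus strand: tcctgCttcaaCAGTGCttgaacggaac
Ftl1, 5′ untranslated region, chr7:45459779-45459806, minus strand: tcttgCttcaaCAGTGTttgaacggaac
Slc40a1, 5′ untranslated region, chr1:45925465-45925492, minus strand: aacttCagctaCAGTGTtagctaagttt
Tfrc, 3′ untranslated region, chr16:32631220-32631247, plus strand: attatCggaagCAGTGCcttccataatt
Tfrc, 3′ untranslated region, chr16:32631599-32631626, plus strand: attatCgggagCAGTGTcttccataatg
Tfrc, 3′ untranslated region, chr16:32631664-32631691, plus strand: tatatCggagaCAGTGAtctccatatgt
Tfrc, 3′ untranslated region, chr16:32631711-32631738, plus strand: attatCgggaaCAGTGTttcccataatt
Slc11a2, 3′ untranslated region, chr15:100395153-100395180, minus strand: gccatCagagcCAGTGTgtttctatggt
The Slc11a2 site fitted the pattern only with 1 unpaired base allowed on the 3′ side of the stem. Without that allowance the pattern occurred in the 5′ untranslated region of 30 of 20597 genes (0.146%) and in the 3′ untranslated region of 129 of 20979 genes (0.615%). With it, the shares were 0.393% and 1.70%. A match describes the letters and is no measurement of protein binding.

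Ferritin heavy and light chain messages were both several times higher in phagocytosis than in control libraries. Fth1 (ENSMUSG00000024661, chromosome 19, 9980598 to 9985098, plus strand) had 2476 and 1978 CPM in the female WT controls and 1794 and 1506 CPM in the female NL4-/- controls. The male WT controls had 2344 and 2166 CPM and the male NL4-/- controls 1769 and 1673 CPM. In phagocytosis Fth1 had 7006, 12141, 9191 and 7412 CPM in female WT and 9918, 9390, 4501 and 4076 CPM in female NL4-/- libraries. The phagocytosis libraries of male WT had 10834, 12003, 10221 and 4849 CPM and those of male NL4-/- had 7326, 5255, 6791 and 6929 CPM. Every phagocytosis library lay above every control library. The share of all genes that separate the states this way was not counted. Nothing is therefore read from such separation, for Fth1 or for the genes below. The means were 1963 ± 340 CPM (SD, n = 8) in control and 7990 ± 2616 CPM (SD, n = 16) in phagocytosis, a log2 fold change of 2.02 ± 0.182 (SE) averaged over sexes and genotypes.

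Ftl1 (ENSMUSG00000050708, chromosome 7, 45457944 to 45459884, minus strand) ran from 2048 CPM through a median of 2487 to 3127 CPM in the 8 control libraries. In the 16 phagocytosis libraries it ran from 5008 CPM through a median of 7928 to 11862 CPM, again with no overlap between the states. Its log2 fold change was 1.74 ± 0.158 (SE). Annotated copies of Ftl1 held 3 to 245 reads over all libraries, the most in Ftl1-ps1, which has 83.3% of its own 31-base words in common with Ftl1. Adding their reads to Ftl1 left the fold at 1.74. For Fth1 the copy search returned no gene with reads to add.

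Per length, ferritin took a much larger part of the transcript pool in phagocytosis. Fth1 and Ftl1 together made up 0.396% ± 0.154 of the deposited TPM (relative transcript abundance corrected for length) in control (SD, n = 8) and 1.73% ± 0.464 in phagocytosis (SD, n = 16). The lowest phagocytosis library, male NL4-/- phagocytosis 2, had 0.814%, above the highest control library, male WT control 1, with 0.659%. Male NL4-/- phagocytosis 2 also had the most satellite reads of its state (16.3%). The lowest control shares were those of the libraries with over 20% satellite reads. They were 0.234% in female NL4-/- control 1, 0.244% in male WT control 2 and 0.247% in male NL4-/- control 1. The other controls had 0.406% to 0.659%. The part of satellite reads in the difference between the states was not tested. The ratio of Fth1 to Ftl1 TPM was 0.888 ± 0.120 in control and 1.17 ± 0.246 in phagocytosis, and its ranges overlapped (0.744 to 1.08 and 0.857 to 1.74).

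**Figure D1:**
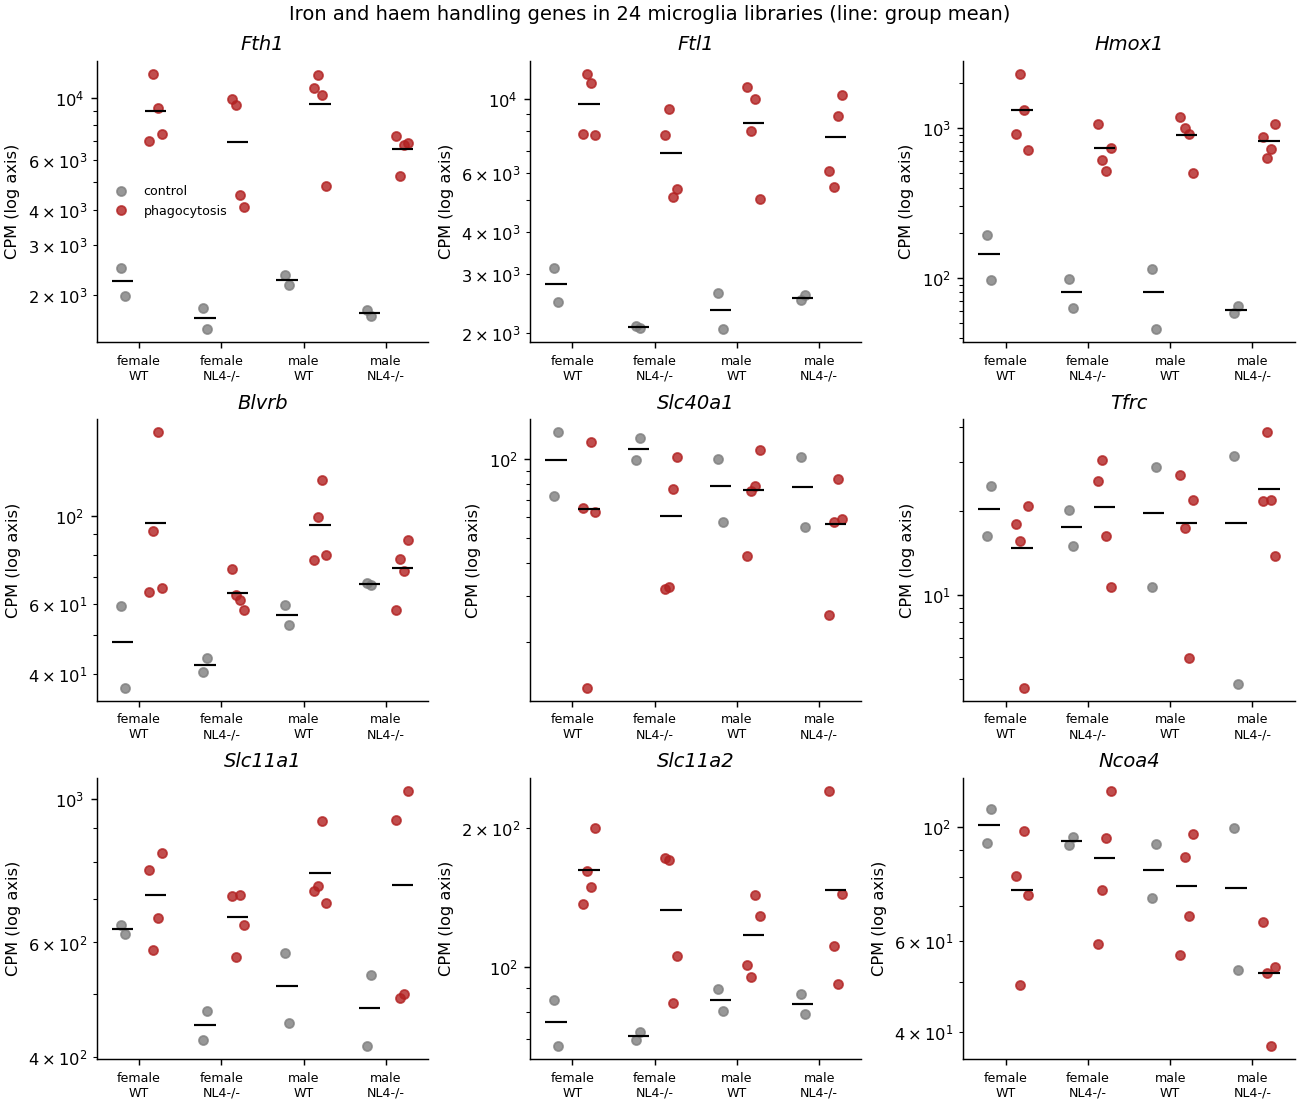
CPM (log axis) of the 9 genes in each of the 24 libraries, by sex and genotype. Grey points are control and red points phagocytosis libraries, and the black line is the group mean. Fth1, Ftl1 and Hmox1 show no overlap between the states, while Tfrc shows no separation and Slc40a1 is widely spread in phagocytosis, from 13.4 to 116 CPM.

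The higher ferritin level lay mostly in transcripts without a retained intron, and in 3 of 4 groups the intron-retaining level was no higher in phagocytosis. GENCODE marks 4 Fth1 and 2 Ftl1 transcripts with reads as intron-retaining, meaning that they still hold sequence that splicing normally removes. Intron-retaining Fth1 transcripts had 171 ± 76.8 CPM in control (SD, n = 8) and 170 ± 48.1 CPM in phagocytosis (SD, n = 16), a ratio of means of 0.994. The other Fth1 transcripts had 1792 ± 291 and 7820 ± 2607 CPM, a ratio of 4.36. For Ftl1 the intron-retaining transcripts had 212 ± 85.2 and 205 ± 44.5 CPM (ratio 0.966) and the others 2229 ± 340 and 7969 ± 2296 CPM (ratio 3.57). Female NL4-/- libraries differed from that division for both genes: their intron-retaining level went from 59.3 ± 5.47 CPM in control (SD, n = 2) to 143 ± 36.8 CPM in phagocytosis (SD, n = 4) for Fth1 and from 82.5 ± 7.49 to 201 ± 49.7 CPM for Ftl1. None of this was tested, because the state contrast was used to choose the genes.

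As a share of the gene, intron-retaining reads were 8.49% ± 3.29 of Fth1 in control and 2.35% ± 1.01 in phagocytosis, and 8.66% ± 3.56 and 2.75% ± 1.09 of Ftl1. In female NL4-/- libraries the shares were 3.60% ± 0.113 and 2.44% ± 1.28 of Fth1 and 3.96% ± 0.40 and 3.27% ± 1.63 of Ftl1. The pair of control libraries in that group stood apart. Female NL4-/- controls 1 and 2 had 63.2 and 55.5 CPM of intron-retaining Fth1 and 77.2 and 87.8 CPM of intron-retaining Ftl1, against 164 to 276 and 210 to 299 CPM in the other 6 controls. Without the female NL4-/- libraries the intron-retaining level was 208 ± 40.2 CPM in control (SD, n = 6) and 179 ± 49.2 CPM in phagocytosis (SD, n = 12) for Fth1, and 256 ± 33.7 and 207 ± 44.9 CPM for Ftl1. How the authors' quantifier divided reads between transcripts of a gene is an estimate, since many reads fit several of them, and the libraries held 28.1 to 201 (control) and 46.1 to 195 (phagocytosis) such reads of Fth1.

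**Figure D2:**
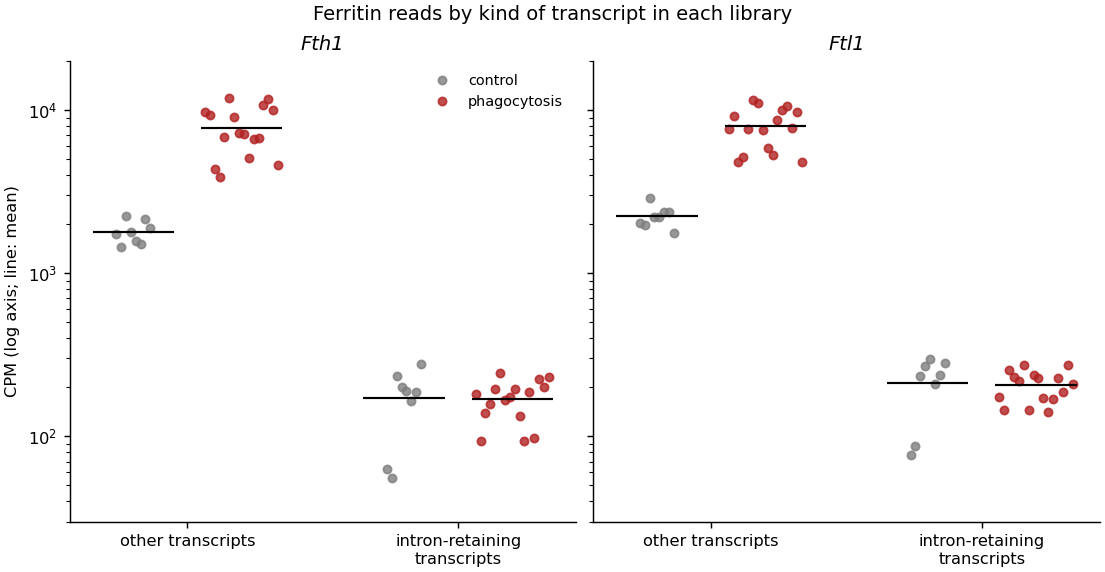
CPM (log axis) of Fth1 and Ftl1 reads on intron-retaining transcripts and on all other transcripts, 1 point per library, with control in grey, phagocytosis in red and the mean as a black line. The intron-retaining level had means of 171 and 170 CPM for Fth1 in the 2 states, while the other transcripts differed 4.36-fold, and the 2 lowest grey points on the right are the female NL4-/- controls.

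Hmox1 (ENSMUSG00000005413, chromosome 8, 75093621 to 75100589, plus strand), the enzyme that opens the haem ring, had the largest fold of the 9 genes. Among controls it had 194 and 97.0 CPM in the female WT pair, 98.9 and 62.8 CPM in the female NL4-/- pair, 115 and 45.4 CPM for male WT and 58.2 and 64.7 CPM for male NL4-/-. The phagocytosis values were 908, 2292, 1323 and 713 CPM in female WT and 1055, 612, 519 and 736 CPM in female NL4-/- libraries. They were 1178, 1002, 912 and 502 CPM in male WT and 868, 632, 726 and 1055 CPM in male NL4-/- libraries. No phagocytosis library overlapped a control library, and female WT phagocytosis 2 was the highest of all. The means were 92.0 ± 47.7 CPM (SD, n = 8) and 940 ± 430 CPM (SD, n = 16), with a log2 fold change of 3.40 ± 0.271 (SE).

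Blvrb (ENSMUSG00000040466, chromosome 7, 27447978 to 27466144, plus strand) encodes biliverdin reductase B, which reduces breakdown products of haem. It ran from 36.8 CPM through a mean of 53.5 ± 12.02 CPM to 68.0 CPM in control and from 58.0 CPM through a mean of 82.3 ± 27.6 CPM to 163 CPM in phagocytosis. The states overlapped, with 10 of 16 phagocytosis libraries above every control. The log2 fold change was 0.62 ± 0.165 (SE), and 0.13 ± 0.332 within male NL4-/- libraries.

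The iron transporters did not move as a block. Slc40a1 (ENSMUSG00000025993, chromosome 1, 45908068 to 45926523, minus strand), the ferroportin gene and the sole known iron exporter, had 91.6 ± 27.1 CPM in control (SD, n = 8, range 55.1 to 126) and 64.5 ± 30.2 CPM in phagocytosis (SD, n = 16, range 13.4 to 116). Its log2 fold change of -0.47 ± 0.289 (SE) depended on which phagocytosis libraries were used. Libraries numbered 1 and 2 in the labels had 43.0 ± 21.2 CPM (SD, n = 8) and those numbered 3 and 4 had 86.0 ± 21.0 CPM (SD, n = 8). The log2 fold change was -1.02 with numbers 1 and 2 alone and -0.07 with numbers 3 and 4 alone. It was -1.04 with the library number as a replicate block. Controls hold only numbers 1 and 2, so that fit takes the mean state difference from those numbers and is no separate result. The lowest library, female WT phagocytosis 2 at 13.4 CPM, was also the highest in Fth1, Ftl1 and Hmox1.

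Tfrc (ENSMUSG00000022797, chromosome 16, 32608920 to 32632794, plus strand), the receptor that takes up transferrin-bound iron, had the lowest level per length of the 9 genes in both states. It had 19.0 ± 9.10 CPM in control and 19.4 ± 8.70 CPM in phagocytosis, a log2 fold change of 0.01 ± 0.312 (SE). Only 2 to 28 reads stood behind a library's value, so a change of moderate size was not detectable at this depth. The log2 fold change was 0.77 without the 3 satellite-rich controls and -0.38 without phagocytosis libraries 1 and 2, so its sign was not fixed by these data.

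The Slc11 pair is known for proton-driven carriers that move divalent metals out of endosomes and phagosomes. Only the messages were measured here. Whether the mouse strain used makes a working protein from either gene was not tested, so nothing is read about metal transport. Slc11a1 (ENSMUSG00000026177, chromosome 1, 74375195 to 74386062, plus strand), the phagosomal carrier NRAMP1, had 517 ± 88.4 CPM in control (SD, n = 8, range 415 to 639) and 718 ± 152 CPM in phagocytosis (SD, n = 16, range 492 to 1030), a log2 fold change of 0.48 ± 0.128 (SE). In phagocytosis 11 of 16 libraries lay above every control. Slc11a2 (ENSMUSG00000023030, chromosome 15, 100387898 to 100425072, minus strand), the carrier DMT1, ran from 67.5 CPM through a mean of 78.8 ± 8.30 to 89.7 CPM in control. In phagocytosis it ran from 83.5 CPM through a mean of 140 ± 42.9 to 241 CPM, with 15 of 16 libraries above every control and a log2 fold change of 0.81 ± 0.164 (SE).

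Ncoa4 (ENSMUSG00000056234, chromosome 14, 32159865 to 32179855, plus strand) encodes the receptor that delivers ferritin to lysosomes for breakdown. It had 88.2 ± 17.4 CPM in control (SD, n = 8, range 52.7 to 108) and 72.7 ± 21.8 CPM in phagocytosis (SD, n = 16, range 37.5 to 117), a log2 fold change of -0.29 ± 0.153 (SE). The ranges overlapped widely, and its mean CPM, unlike that of ferritin, was not higher in phagocytosis. Its mean TPM was 25.7 in control and 29.8 in phagocytosis, so the direction depended on the scale.

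By edgeR's quasi-likelihood test with Benjamini-Hochberg adjustment over 9803 genes, 6 of the 9 genes were called higher in phagocytosis and 0 lower, beside 8.41% of all genes called higher and 5.18% called lower. The 6 were Fth1, Ftl1, Hmox1, Blvrb, Slc11a1 and Slc11a2, and DESeq2 also called 6. Within a single sex and genotype, with 4 against 2 libraries, 3 of the 9 were called in each group, Fth1, Ftl1 and Hmox1. The background of all genes called was 0.581% for WT females and 0.459% for NL4-/- females, and 0.326% and 0.602% for the corresponding males. Since the 9 genes were selected on this contrast, nothing is read from these counts.

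**Figure D3:**
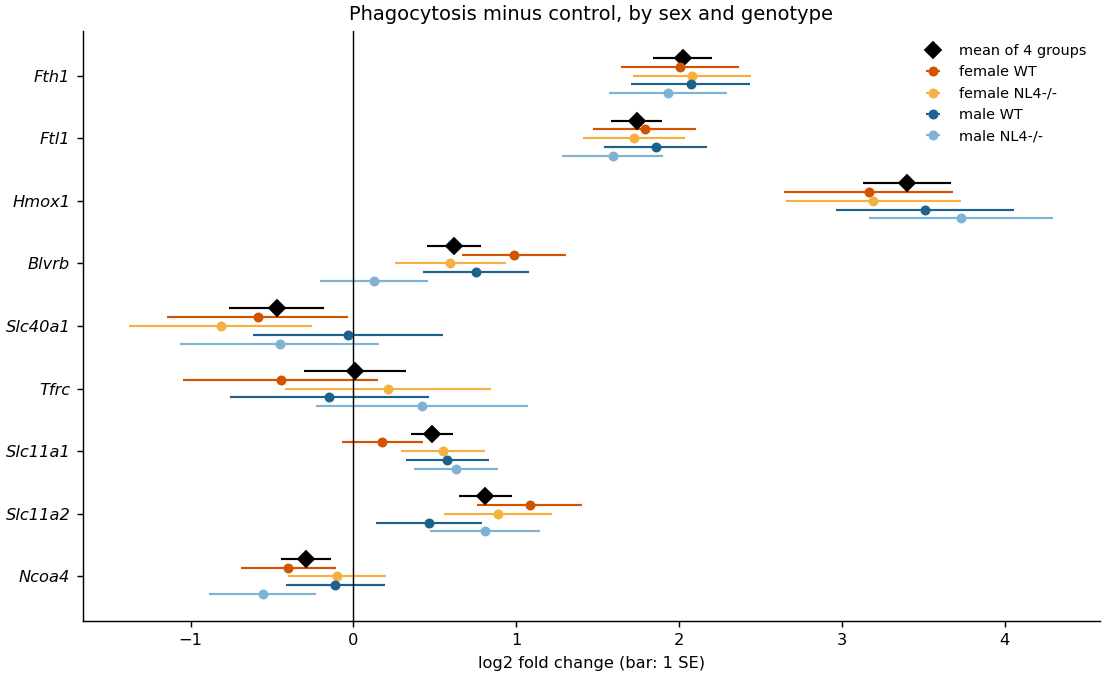
Log2 fold change of phagocytosis against control for the 9 genes, averaged over sexes and genotypes (black diamond) and within each group (coloured points), with bars of 1 SE. Fth1 lies between 1.93 and 2.08 in the 4 groups, Ftl1 between 1.59 and 1.86 and Hmox1 between 3.16 and 3.73, while the group values of Tfrc lie on both sides of 0, from -0.45 to 0.42, and those of Slc40a1 (-0.81 to -0.03) and Ncoa4 (-0.56 to -0.10) lie below it.

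The sizes within the groups were close for the ferritin genes. Fth1 had log2 fold changes of 2.00 ± 0.362 for WT and 2.08 ± 0.364 for NL4-/- females (SE), and of 2.07 ± 0.364 and 1.93 ± 0.362 for WT and NL4-/- males. Hmox1 had 3.16 ± 0.519, 3.19 ± 0.538, 3.51 ± 0.546 and 3.73 ± 0.567 in the same order. The spread between groups was smaller than 1 SE for Fth1 and about that size for Hmox1.

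Ordered by median TPM, the control libraries ran Ftl1 (2233 TPM), Fth1 (1801), Slc11a1 (208), Blvrb (39.8), Hmox1 (34.9), Ncoa4 (25.9), Slc40a1 (21.4), Slc11a2 (16.2) and Tfrc (5.17). Values of neighbours in that order overlapped except between Fth1 and Slc11a1, Slc11a1 and Blvrb, and Slc11a2 and Tfrc. In phagocytosis the order was Fth1 (10019 TPM), Ftl1 (7920), Hmox1 (487), Slc11a1 (301), Blvrb (72.6), Slc11a2 (39.6), Ncoa4 (28.9), Slc40a1 (26.1) and Tfrc (8.85). There only Ftl1 and Hmox1 did not overlap. Hmox1 thus moved from rank 5 of the 9 genes in control to rank 3 in phagocytosis. Ncoa4, Slc40a1 and Tfrc had higher median TPM in phagocytosis, although their log2 fold changes from counts were -0.29, -0.47 and 0.01. The direction of Ncoa4 thus depended on the scale. Slc40a1 had a mean TPM of 27.5 in control and 26.5 in phagocytosis, so only its median TPM went against its fold. For Tfrc the sign was the same on both scales and the size differed.

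Markers of other cells also differed between the states. All 8 markers of border-associated macrophages, which line vessels and meninges, had higher means in phagocytosis, and their sum ran from 19.9 to 59.0 CPM in control and from 66.3 to 392.3 CPM in phagocytosis. Siglec1 made up most of that sum, Lyve1 was at 0 in 14 and Cd163 in 13 of 24 libraries. Of 6 monocyte markers 6 had higher means, with sums of 13.9 to 69.1 and 24.8 to 165 CPM, while the 6 microglial markers reported had lower means. Neutrophil markers summed to 0 to 22.3 and 0 to 140 CPM (4 of 6 with higher means). Their median sum was instead lower in phagocytosis, at 1.66 CPM against 7.66 CPM in control. S100a8 and S100a9 were each at 0 in 13 of 24 libraries. Astrocyte markers summed to 1.40 to 8.92 and 6.52 to 40.8 CPM (4 of 4) and neuronal markers to 2.38 to 7.94 and 11.5 to 105 CPM (4 of 4). Endothelial markers summed to 15.8 to 30.6 and 14.4 to 63.2 CPM (2 of 4). Scaled by the library total, Uchl1 differed most among the neuronal markers (means 2.02 and 32.4 CPM). Gfap did so among the astrocyte markers (1.72 and 14.1 CPM), while Aqp4 was at 0.77 and 0.82 CPM. The part of these cells in the iron gene values was not tested, and in bulk libraries a change in the number of cells of a kind cannot be told from a change of RNA per cell.

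Red cells carry haem, so erythroid markers were read beside Hmox1. Of 7 erythroid markers 6 had higher means in phagocytosis, and their sum ran from 1.13 to 91.1 CPM in control and from 1.303 to 931 CPM in phagocytosis. The value of 931 CPM belonged to female WT phagocytosis 1, which had 908 CPM of Hmox1 and 7006 CPM of Fth1, both near the median of phagocytosis libraries. Without that library the log2 fold change was 3.44 for Hmox1, 2.05 for Fth1 and 1.77 for Ftl1. The next highest phagocytosis sum was 88.2 CPM. The median sum was 3.08 CPM in control and 10.8 CPM in phagocytosis, and the part of erythroid RNA in the Hmox1 values was not tested beyond leaving out that library.

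The 9 genes did not vary as 1 unit among the 16 phagocytosis libraries. With values centred on each sex and genotype, Pearson's r was 0.810 for Fth1 with Ftl1, 0.717 for Fth1 with Hmox1 and 0.690 for Ftl1 with Hmox1. Slc40a1 and Ncoa4 ran the other way, with r of -0.655 and -0.629 against Fth1 and 0.604 with each other. Slc11a1 had r between 0.033 and 0.073 with Fth1, Ftl1 and Hmox1. Values were not centred on the library number. Means in numbers 1 and 2 and in numbers 3 and 4 were 9234 and 6746 CPM for Fth1, 43.0 and 86.0 for Slc40a1 and 65.6 and 79.9 for Ncoa4. The part of the library number in these r and in those below was not tested. All are descriptions over 16 libraries that share their normalisation.

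Among 6689 genes of at least 20 CPM, the genes whose pattern over the same 16 libraries was most like Fth1 were Cstb (r = 0.943), which encodes the cysteine protease inhibitor cystatin B, Esd (0.901), a formylglutathione hydrolase, and Glrx (0.896), a glutaredoxin. For Ftl1 they were the respiratory chain subunit gene Cox6a1 (0.924) and the galectin genes Lgals3 (0.896) and Lgals1 (0.888).

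The iron-responsive element of Slc11a2 lies in only 1 of its transcripts, Slc11a2-205, which made its share of reads a measure apart from the gene's level. Slc11a2-205 held 18.9% ± 6.90 of Slc11a2 reads in control (SD, n = 8, range 11.2 to 32.8) and 26.9% ± 9.40 in phagocytosis (SD, n = 16, range 9.77 to 48.1). The difference averaged over sexes and genotypes was 7.95 percentage points, positive in 3 of 4 groups (two-sided exact permutation test within groups, p = 0.0526, smallest possible p 1.98e-05). It was 11.8 percentage points for WT of either sex, 9.13 for NL4-/- males and -0.95 for NL4-/- females. The difference did not pass 0.05, and as a share of TPM it was 3.68 percentage points (exact permutation p = 0.1803). Between 4.74 and 38.3 reads per library stood behind the share.

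The wider iron and haem system was read from a list of 85 other genes, of which 59 had enough reads to test. In phagocytosis against control 6 rose, 4 fell and 49 did not pass the test, shares near the 8.41% of all genes called higher and the 5.18% called lower, so these counts show nothing particular to the list. Their median log2 fold change was 0.09, or 0.08 without the 1 gene that had no read in some group, against -0.01 over all genes tested. Adjusted p-values below are from edgeR over all 9803 genes, and the list was drawn up with earlier results of these libraries known.

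Among 7 tested genes of iron uptake and transport, Slc39a14, a carrier of iron not bound to transferrin, rose from 69.2 ± 17.3 CPM to 133 ± 54.7 CPM (log2 change 0.92 ± 0.236 SE, edgeR adjusted p = 0.0118), but not without the 3 satellite-rich controls (0.0929) or with length-scaled counts (0.0807). Lcn2, whose product binds bacterial iron carriers, rose from 7.35 ± 3.97 CPM to 37.1 ± 43.5 CPM (edgeR adjusted p = 0.0487), a call that was lost when any of 16 single libraries was left out and in 2 further alternatives. Trf, the gene of transferrin, fell from 1864 ± 266 to 1254 ± 377 CPM (log2 fold change -0.57 ± 0.154, edgeR adjusted p = 0.0135), with adjusted p between 0.0533 and 0.0638 when number 2 of the female WT, female NL4-/- or male NL4-/- controls was left out. It was also not called without the satellite-rich controls (0.0759) or without phagocytosis libraries 1 and 2 (0.0764). Trf is also an oligodendrocyte marker, and the other 6 such markers summed to 121 to 184 CPM in control and 167 to 371 CPM in phagocytosis. Of export and ferroxidase genes only Cp, ceruloplasmin, could be tested, at 6.88 ± 3.78 and 14.4 ± 9.08 CPM (edgeR adjusted p = 0.0982).

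Of 13 genes that sense iron or control its use, 2 fell. Hfe, which acts with the transferrin receptors in iron sensing, fell from 261 ± 37.6 to 172 ± 52.8 CPM (log2 fold change -0.61 ± 0.155 SE, edgeR adjusted p = 0.00883). Herc2, a ubiquitin ligase that marks Ncoa4 for destruction, fell from 227 ± 43.5 to 155 ± 35.9 CPM (log2 fold change -0.54 ± 0.122 SE, edgeR adjusted p = 0.00322). Without the 3 satellite-rich controls the adjusted p of Hfe was 0.0647, and with length-scaled counts that of Herc2 was 0.149.

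Haem handling outside Hmox1 and Blvrb changed in 1 of 8 tested genes. Slc48a1, which carries haem out of the lysosome, rose from 52.4 ± 12.4 CPM to 132 ± 34.5 CPM (log2 change 1.33 ± 0.155 SE, edgeR adjusted p = 5.45e-07), and it passed in each of 33 alternative analyses. Hmox2, the second haem oxygenase gene, was at 208 and 190 CPM and did not pass (edgeR adjusted p = 0.516). Of 12 haem synthesis genes, Fech, which inserts iron into the ring, fell from 93.3 ± 38.7 to 55.8 ± 17.5 CPM (log2 fold change -0.68 ± 0.193 SE, edgeR adjusted p = 0.0172). That call was lost without female WT control 2 (0.102), female NL4-/- control 1 (0.101) or male NL4-/- control 1 (0.0989), with length-scaled counts (0.146), without the satellite-rich controls (0.328) and without phagocytosis libraries 1 and 2 (0.0790).

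Of 18 genes of mitochondrial iron and iron-sulphur cluster assembly, 3 rose and 0 fell. The chaperone gene Hspa9 rose from 118 ± 24.5 CPM to 167 ± 19.97 CPM (edgeR adjusted p = 0.00126) and the scaffold gene Iscu from 89.5 ± 20.02 to 129 ± 32.7 CPM (edgeR adjusted p = 0.0133, or 0.0543 with length-scaled counts). Fdx1l, a ferredoxin gene, rose from 19.8 ± 12.4 CPM to 41.8 ± 19.9 CPM (edgeR adjusted p = 0.0451) and lost its call when any of 16 single libraries was left out and in 4 further alternatives.

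Hmox1 and both ferritin genes are known targets of NRF2, the transcription factor of the oxidative stress response, so 18 other targets were read, 17 of them testable. Of these 7 rose, 0 fell and 10 did not pass, beside 8.41% of all genes called higher and 5.18% called lower, with a median log2 fold change of 0.95, or 0.71 without the 1 gene that had no read in some group. Prdx1, a peroxiredoxin, rose from 197 ± 18.9 CPM to 397 ± 121 CPM (log2 change 0.99 ± 0.135 SE, edgeR adjusted p = 8.09e-06). Txn1, thioredoxin, rose from 37.6 ± 7.89 CPM to 87.1 ± 27.3 CPM (1.19 ± 0.191 SE, edgeR adjusted p = 7.99e-05). Sqstm1, an autophagy receptor gene, rose from 310 ± 41.5 CPM to 746 ± 295 CPM (1.25 ± 0.206 SE, edgeR adjusted p = 0.000317). Srxn1, sulfiredoxin, rose from 4.34 ± 3.19 CPM to 27.8 ± 17.7 CPM (2.84 ± 0.517 SE, edgeR adjusted p = 0.000445). These 4 passed in each of 33 alternative analyses, whereas Gclc and Gclm, which make glutathione, did not pass (edgeR adjusted p = 0.317 and 0.510). Of the other called targets, Txnrd1 passed in 33 of 33 alternatives, Taldo1 in 32 and Slc7a11 in 26.

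RefSeq promoters (GRCm38.p6, 250 bases before to 50 after the start) were at hand for 6 of the 9 genes and were searched on both strands for the core of the antioxidant response element that NRF2 binds, TGACNNNGC or TGAGNNNGC. A match stood in a window of Blvrb, Ncoa4 and Slc11a1 and in none of Fth1, Ftl1 and Tfrc, while 27.8% of 32851 promoters held a match. That share counts single windows, whereas Blvrb, Ncoa4, Fth1 and Tfrc had several, and Blvrb and Ncoa4 also had windows without a match. The gene count is therefore not comparable with it. Sequence further from the start was not searched, so a missing match says nothing about more distant elements.

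**Figure D4:**
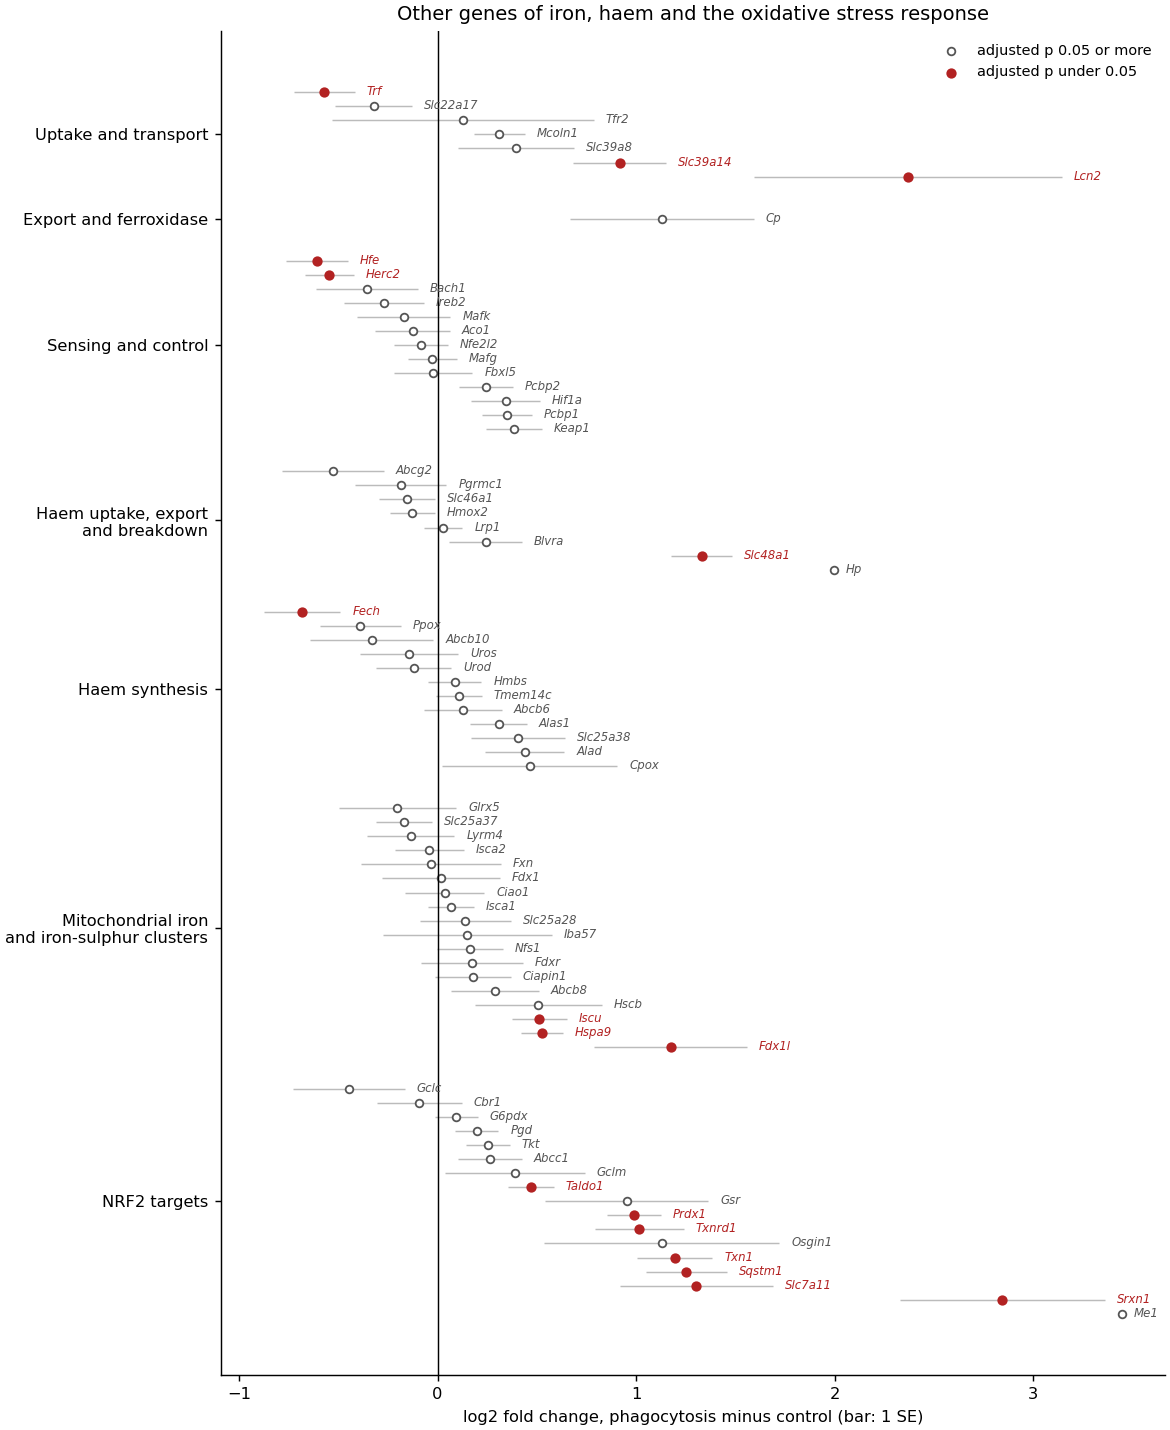
Log2 fold change of phagocytosis against control for the tested genes of the other iron and haem groups and of the NRF2 targets, 1 point per gene, with bars of 1 SE (no bar where a group had no read). Red points passed an adjusted p of 0.05 in edgeR and open points did not. Of the NRF2 targets 7 of 17 passed, all to the right of 0, and of the 59 iron and haem genes 10 passed, 6 to the right and 4 to the left.

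Whether neuroligin-4 loss altered these genes was asked as NL4-/- against WT, averaged over sex and state. None of the 9 genes passed: edgeR called 0, DESeq2 called 0, and 0% of all 9803 genes were called. At an unadjusted p under 0.05 there were 2 of 9, Fth1 and Hmox1, beside 4.47% of all genes. Fth1 was lower in NL4-/- by a log2 fold change of -0.43 ± 0.165 (SE, edgeR unadjusted p = 0.0154, adjusted p = 0.998) and Hmox1 by -0.55 ± 0.241 (SE, edgeR unadjusted p = 0.0337, adjusted p = 1.00). Over its alternative analyses the adjusted p of Fth1 ran from 0.0240, with no filter on low counts, to 1.00.

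In the controls the 4 NL4-/- values of Fth1, 1506 to 1794 CPM, lay below the 4 WT values, 1978 to 2476 CPM, and in phagocytosis they overlapped. The share of all genes that separate the control genotypes this way was not counted. In TPM the control values overlapped, with 1267 in the satellite-rich male WT control 2 and 1837 in female NL4-/- control 2. Female NL4-/- phagocytosis libraries had 6971 ± 3110 CPM (SD, n = 4) against 8937 ± 2337 CPM in female WT, and male ones 6575 ± 909 CPM against 9477 ± 3172 CPM. For Hmox1 the female phagocytosis means were 731 ± 234 and 1309 ± 703 CPM and the male ones 820 ± 184 and 899 ± 287 CPM. In phagocytosis the genotype differences of both genes were thus of the order of the spread between libraries. In the controls the Fth1 means were 2227 ± 352 CPM for WT and 1650 ± 204 CPM for NL4-/- females, and 2255 ± 126 and 1721 ± 67.7 CPM for males (SD, n = 2 each). Neither control difference passed a test (edgeR unadjusted p = 0.265 for females and 0.316 for males).

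Within a sex and state edgeR called 0 of the 9 genes in female control (0% of all genes), female phagocytosis (0%), male control (0%) and male phagocytosis (0%), and DESeq2 called 0 in total. An unadjusted p under 0.05 was reached by 0, 3, 0 and 1 of the 9 genes. In female phagocytosis libraries they were Ftl1 (-0.49 ± 0.236 SE), Hmox1 (-0.84 ± 0.356) and Blvrb (-0.58 ± 0.253), each with an edgeR adjusted p of 0.946. In male phagocytosis libraries it was Ncoa4, with 52.0 ± 11.3 CPM (SD, n = 4) in NL4-/- and 76.9 ± 18.5 CPM in WT (-0.57 ± 0.257 SE, edgeR adjusted p = 1.00).

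**Figure D5:**
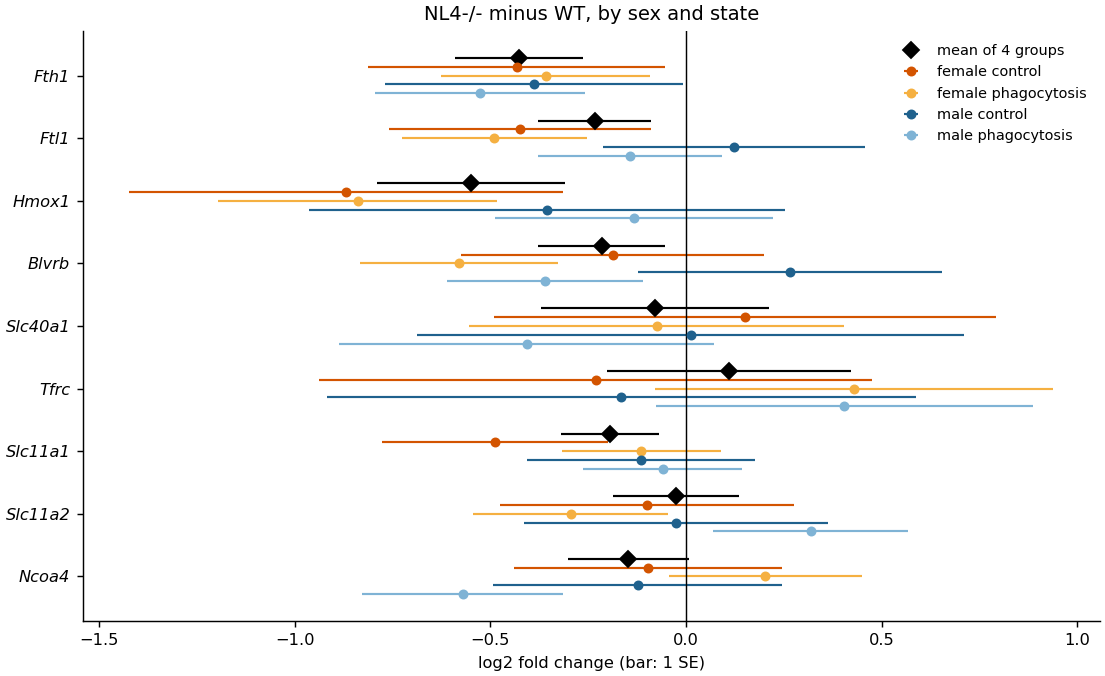
Log2 fold change of NL4-/- against WT for the 9 genes, as the mean of the 4 sex and state groups (black diamond) and within each (coloured points), with bars of 1 SE. Fth1 lies left of 0 in all 4 groups, from -0.53 to -0.36, but no gene passed the test in any group.

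The response to phagocytosis did not pass a test of difference between genotypes or sexes for any of the 9 genes. For the interaction of state and genotype edgeR called 0 of 9 (0% of all genes), DESeq2 called 0, and 0 reached an unadjusted p under 0.05. The difference of the state effect between NL4-/- and WT was -0.03 ± 0.328 (SE) for Fth1, -0.17 ± 0.289 for Ftl1, 0.13 ± 0.481 for Hmox1 and -0.51 ± 0.327 for Blvrb. For the interaction of state and sex edgeR again called 0 (0% of all genes), DESeq2 called 0 and 0 reached that p, with 0.04 ± 0.328 for Fth1 and -0.44 ± 0.481 for Hmox1 (female minus male). The SE of these differences ran from 0.250 to 0.624 over the 9 genes. To pass, a difference must be well above its SE, so differences larger than these values could also go undetected.

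Between the sexes edgeR called 0 of the 9 genes, beside 0.0612% (6) of all genes, and DESeq2 called 0. The 1 gene with an unadjusted p under 0.05 was Ncoa4, at 86.4 ± 19.6 CPM in female and 69.4 ± 20.4 CPM in male libraries (SD, n = 12 each, log2 fold change 0.33 ± 0.154 SE, edgeR adjusted p = 1.00). Fth1 was at 5949 and 6013 CPM in the 2 sexes. None of the 59 other iron and haem genes and none of the 17 NRF2 targets was called by edgeR for genotype, sex or the 2 interactions, and DESeq2 called 0 of the 59 for genotype. An unadjusted p under 0.05 was reached by 3 of the 59 and 3 of the 17 for genotype, by 1 and 0 for sex, by 0 and 0 for state by genotype and by 0 and 1 for state by sex.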

How the data were processed

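The deposited files hold, per library and transcript, a length, an effective length, the authors' expected counts (reads, divided among transcripts where shared) and the authors' TPM, per the file headers; this layout is that of salmon, and the tool, index and read filters behind it were not given in the sources used. Transcripts were matched to GENCODE vM21 (116023 matched, 922 not, 0.274 to 0.379% of reads), and expected counts were summed per gene and rounded. edgeR 4.0.16 (R 4.3.3) fitted 8 group means with TMM scaling, robust quasi-likelihood and edgeR's filter by group (minimum count 10, 9803 genes, common dispersion 0.0812). Tests were two-sided, Benjamini-Hochberg adjustment ran over all genes tested (threshold 0.05), and 15 contrasts were fitted. SE were worked back from the fold and the F statistic. P-values measure the spread between libraries, which the series calls biological replicates. Reads carry no molecular identifiers, so reads are not independent molecules.

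The 9 genes and all lists were chosen with earlier results of these data known. Besides the 9, the genes named are up to 4 per list with the smallest adjusted p among those past the threshold, and the 2 smallest, or all tested, where none passed, and the 3 most like Fth1 and Ftl1 by Pearson's r of log2(CPM + 1). Hmox2, Gclc, Gclm, Txnrd1, Taldo1 and Slc7a11 were named outside that rule, after their values were seen, and of the markers those that led or were absent. Alternatives were RLE scaling, DESeq2 1.42.0, no filter, length-scaled counts, a replicate block, each library left out, the satellite-rich controls or library numbers left out, copies added, and, chosen after seeing the data, library totals alone and 3 subsets for the Slc11a2 share. On simulated counts for these genes edgeR called 77 of 96 genes changed by log2 1 and 92 of 92 changed by log2 2. No replicate pair agreed within sampling noise (lowest chi-square per degree of freedom 2.68). Sequences are from GENCODE and RefSeq; protein sequences were not used here. One gene of the microglial marker list is not reported here.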

Additional observations from a re-analysis of the deposited data

Results flagged for a closer look

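In the 4 male NL4-/- phagocytosis libraries the share of Fth1 reads on intron-retaining transcripts was 2.67%, 2.55%, 1.38% and 2.71%, and the value of 1.38% (library 3) lay far below the others, which were close to each other. It was the 1 such value in 48 sets of 4 libraries examined (the 9 genes, both intron shares and the Slc11a2 share), where chance alone gives about 1 in 20.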

How the results depend on the processing

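The folds of Fth1, Ftl1 and Hmox1 in phagocytosis against control kept their direction in all alternatives run, between 1.76 and 2.26, 1.59 and 1.80, and 3.21 and 3.60 on the log2 scale. The number of the 9 genes called in that contrast stayed at 6 with each library left out. In the main fit 8.41% of all genes were called higher and 5.18% lower. As the 9 genes were chosen with that contrast known, nothing is read from their calls in it, here or below. Blvrb and Slc11a1 were not called without the 3 satellite-rich controls, nor Slc11a1 with length-scaled counts. Without the filter on low counts edgeR called 1 of the 9 genes, Fth1, for genotype (-0.44, adjusted p = 0.0240), and the cause was not tested. Of the other iron and haem genes, 3 were called higher and 2 lower with length-scaled counts, 1 lower without the satellite-rich controls, and 4 to 8 higher and 2 to 4 lower (2 without female WT control 2) with 1 library left out. The Slc11a2 share differed by 11.6 percentage points without phagocytosis libraries 3 and 4 (exact permutation p = 0.0216), by 4.32 without 1 and 2 (exact p = 0.1698), and by 6.14 to 9.33 with 1 library left out, where 6 of 24 tests passed 0.05 (without female WT phagocytosis 1, female NL4-/- control 2, female NL4-/- phagocytosis 3, male WT control 2, male WT phagocytosis 1 or male NL4-/- phagocytosis 3). Over all genes, 1332 were called between the states (61.9% higher), 410 (80.5% higher) without the satellite-rich controls, 782 without phagocytosis libraries 1 and 2, and 1329 (73.8% higher) with library totals alone. Library numbers did not pair the samples (median r of deviations 0.006 over 68 same-numbered pairs). With the number as a replicate block 1646 genes were called, and of the 9 genes Slc40a1 joined those called (-1.04). Controls hold only numbers 1 and 2, so that fit takes the mean state difference from libraries 1 and 2. Depth limits Tfrc most, with 2 to 28 reads per library.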
